A study of Mus musculus with 18 samples.

Results

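A set of 10 Notch pathway genes was followed in mouse ovaries around the time when primordial follicles form and begin to grow. They were the ligands Jag1 and Jag2, the receptors Notch1, Notch2 and Notch3, the receptor-modifying enzyme gene Lfng, and the target genes Hes1, Hey1, Hey2 and Heyl. The 10 genes were taken by their symbols, and all 10 were found among the 30172 symbols listed for every library. Polyadenylated RNA of whole ovaries from wild-type C57BL/6J female offspring (F1) was sequenced at postnatal day 3 (Pd3), Pd7 and Pd21, with 3 libraries for each diet and day and 18 in all. The mothers of the F1-HHcy group ate a diet with 3% methionine by weight, which raises blood homocysteine (hyperhomocysteinemia, HHcy), according to the labels from 4 weeks before mating through lactation, whereas the mothers of the F1-Control group ate normal chow. The methods of the study differ from the labels here, with a longer time on the diet before pairing and a standard diet of set methionine content for the controls. The pups themselves received no treatment in either group, and the sources used here do not say if pups were pooled for a library, so p-values measure only the spread between these libraries. The Pd3 and Pd7 libraries carry the batch label 1 and the Pd21 libraries the batch label 2, so that age and batch cannot be told apart in any comparison with Pd21.

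Notch signaling passes between touching cells. A Jagged or Delta ligand on the surface of one cell binds a Notch receptor on its neighbour, the receptor is cut, and its inner part moves to the nucleus, where it joins the DNA-binding protein RBPJ and switches on target genes such as those of the Hes and Hey families, which encode transcriptional repressors. In the neonatal mouse ovary the pathway is known for signaling between germ cells and the pregranulosa cells around them, while germ cell nests break up and primordial follicles are assembled.

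Levels are given as FPKM, fragments scaled to gene length and to the depth of the library. Levels of different genes can be compared only as far as the gene lengths behind the values hold. Libraries held between 33630641 and 39399281 fragments, and the 10 genes were covered by 141 fragments (Lfng) to 7282 fragments (Notch2) in a library. The lowest of these counts carries a counting error of 8.42%, and errors of counting do not include the spread between animals. The intervals of the diet differences below rest, like the p-values, on the spread between these libraries. Markers of granulosa cells and of oocytes, which define the ovary, were present in every group, with 0 of 10 markers at 0 in each list. Libraries of a group resembled each other with a Pearson correlation between 0.975 and 0.997 over all genes on the log2 scale. The lowest correlations were those of replicate 3 of F1-HHcy at Pd3. F1-Control replicate 2 at Pd7 had the highest summed FPKM (532003, against 400360 to 469733 in the other libraries), and its median gene lay at -0.11 on the log2 scale relative to the mean of all libraries. The median gene of F1-HHcy replicate 2 at Pd21 lay at -0.14 and that of F1-Control replicate 3 at Pd3 at 0.11. For differences that passed the threshold, the fits below without 1 library include these libraries. For the receptors at Pd7, ranges over such fits are given.

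The level of the 10 genes spanned more than an order of magnitude. In F1-Control ovaries at Pd3, Hes1 was the highest at a mean of 37.4 ± 8.62 FPKM (SD, n = 3) and Notch3 the lowest at 1.62 ± 0.737 FPKM. Hes1 also had the highest mean of the 10 in F1-Control at Pd7 (24.5 ± 4.84 FPKM) and at Pd21 (21.4 ± 2.51 FPKM). In F1-HHcy it came first only at Pd3 (24.2 ± 8.19 FPKM), whereas Hey2 had the highest mean at Pd7 (14.2 ± 3.75 FPKM) and Heyl at Pd21 (19.9 ± 2.72 FPKM). These ranks were not separated by the libraries in every group. Among the 9 pairs of neighbours in the order, 4 overlapped in F1-Control at Pd3, 7 in F1-HHcy at Pd3, 7 in F1-Control at Pd7, 8 in F1-HHcy at Pd7, and 6 in each diet group at Pd21. At Pd7 the F1-HHcy means of Hey2, Notch2 (13.6 FPKM), Hes1 (12.9 FPKM) and Heyl (11.4 FPKM) therefore had no clear order, while Hes1 stood above all other members in F1-Control without overlap. The order also depends on the gene lengths behind the values. With the exon lengths of GENCODE M21, a choice made after the values were seen, Hes1 kept the highest mean in the same 4 groups and Heyl in F1-HHcy at Pd21, but Notch2 rather than Hey2 had the highest mean in F1-HHcy at Pd7 (13.3 FPKM when rescaled to these lengths).

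**Figure D1:**
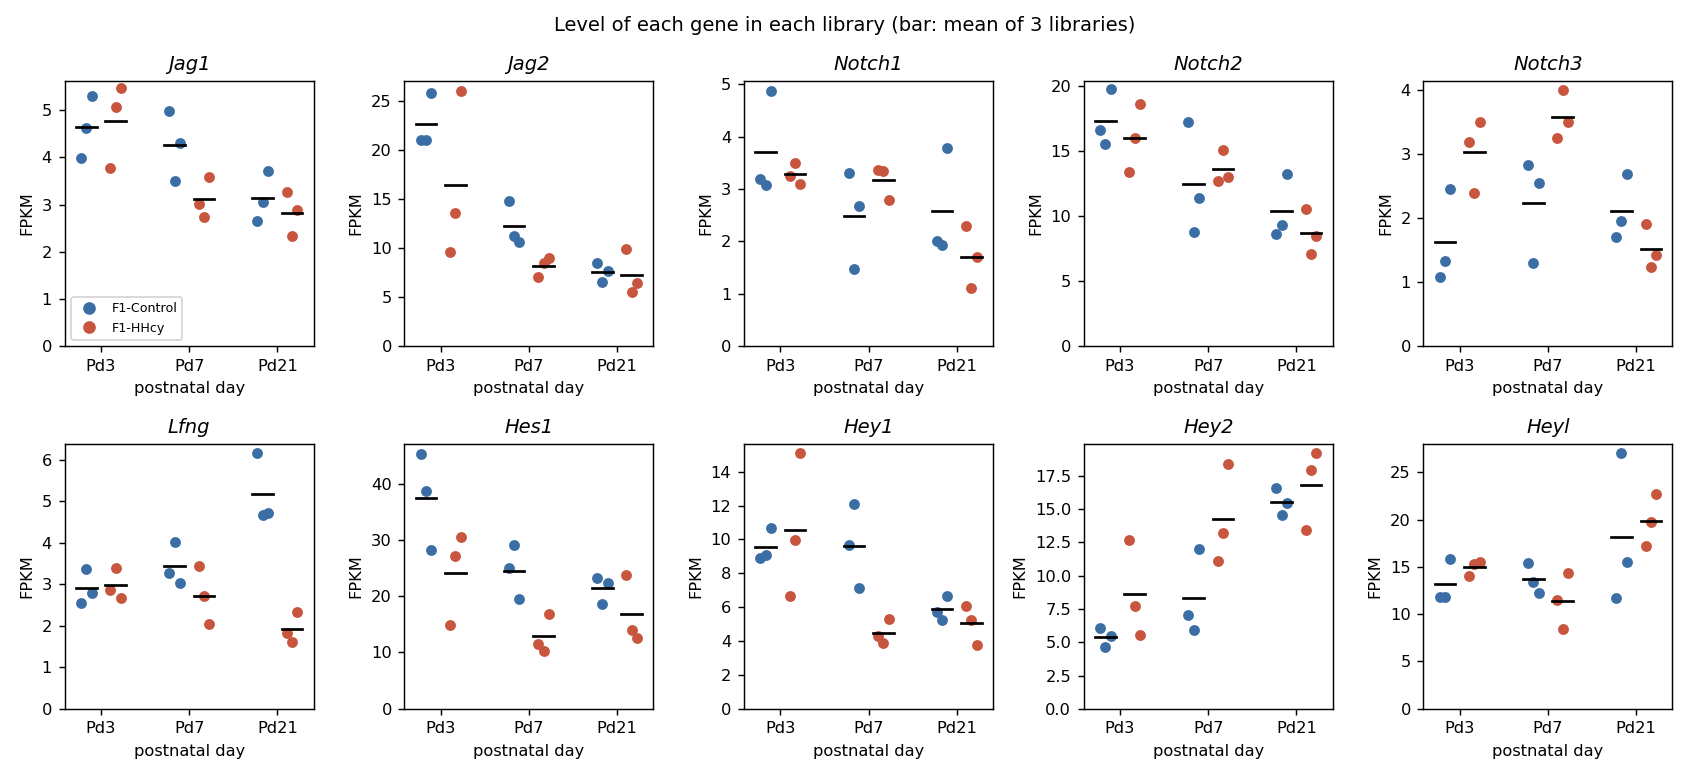
Level of each of the 10 genes in FPKM (vertical axes, from 0) in each of the 18 libraries by postnatal day, with F1-Control in blue, F1-HHcy in red and a bar at the mean of 3 libraries. At Pd7 all F1-HHcy points of Hes1 (10.3 to 16.9 FPKM) and Hey1 (3.90 to 5.31 FPKM) lie under all F1-Control points, and at Pd21 the same holds for Lfng (1.60 to 2.32 against 4.66 to 6.15 FPKM).

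The diets were compared for each day with limma on log2(FPKM + 1), so that log2 fold changes of low genes are understated, with p-values adjusted over all genes tested by the Benjamini-Hochberg method and an adjusted p under 0.05 as the threshold. All 10 genes could be tested on every day. At Pd3, 0 of 10 members passed, where 3.07% of 13277 genes did. Without adjustment, 1 member (Notch3) had a p under 0.05, and limma-voom on the fragments likewise called 0 members after adjustment. The share of all genes with an unadjusted p under 0.05 alone was not taken. Whether counts at that threshold, here and below, exceed the share of all genes is therefore not known. At Pd7, 2 of 10 members (Hes1 and Hey1) fell in F1-HHcy and 0 rose, where 11.9% of 13299 genes passed, 5.98% lower and 5.88% higher. At Pd21, 1 of 10 members (Lfng) fell and 0 rose, where 2.23% of 13350 genes passed, all of them lower in F1-HHcy. The libraries of the diet groups did not overlap for 0 of 10 members at Pd3 (27.9% of all genes), 4 at Pd7 (39%) and 1 at Pd21 (10.5%). By the looser criterion of the study, which asks for p under 0.05 without adjustment and a change beyond 0.58 on the log2 scale, 1 member was called at Pd3 (9.74% of all genes), 3 at Pd7 (16.4%) and 1 at Pd21 (5.14%). The median log2 fold change of the 10 genes was 0.03 at Pd3 (all genes -0.03), -0.26 at Pd7 (all genes -0.0015) and -0.21 at Pd21 (all genes -0.01). Hes1 and Jag2 had negative log2 fold changes on all 3 days and Hey2 positive ones, and the other 7 members had both signs.

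**Figure D2:**
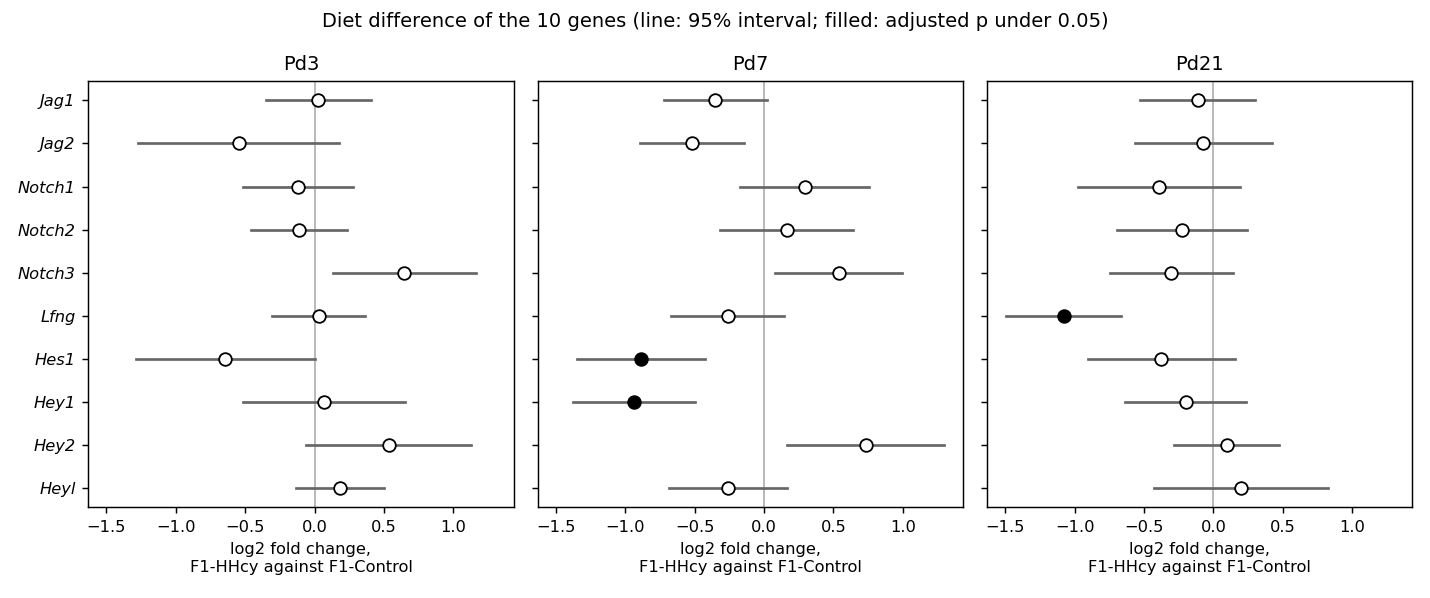
Log2 fold change of F1-HHcy against F1-Control (horizontal axes, on the log2(FPKM + 1) scale) of the 10 genes at Pd3, Pd7 and Pd21, with lines for the 95% interval and filled points for an adjusted p under 0.05. The filled points are Hes1 (-0.89) and Hey1 (-0.93) at Pd7 and Lfng (-1.08) at Pd21, and at Pd3 all points are open.

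The ligand genes encode membrane proteins that bind Notch receptors on neighbouring cells. Jag2, on chromosome 12 (GRCm38, chr12:112907819-112929776, minus strand), had the higher FPKM of the pair in every library, by 2.07 to 5.29 times. This order rests on the gene lengths in the deposited values, which are 11717 bases for Jag1 and 5179 bases for Jag2. GENCODE M21 exons cover 5827 and 6965 bases, and with these lengths the ratio of Jag2 to Jag1 ran from 0.764 to 1.96 and Jag2 was the higher in 9 of 18 libraries. Jag2 measured 21.1, 21.1 and 25.9 FPKM in the F1-Control libraries at Pd3 and 9.56, 13.6 and 26.0 FPKM in those of F1-HHcy. Only replicate 3 of F1-HHcy, at 26.0 FPKM, stood at the level of the control libraries, and the difference did not pass the test (log2 fold change -0.55, SE 0.31, adjusted p = 0.338). Without that library, when 21.6% of all genes passed at Pd3, Jag2 was lower with a log2 fold change of -0.92 (adjusted p = 0.00809). Jag2 passed at Pd3 in only 1 of the 6 fits without 1 library. Over these fits the log2 fold change ran from -0.92 to -0.24, and the limma adjusted p reached 0.702. At Pd7 Jag2 measured 14.9, 11.2 and 10.6 FPKM in F1-Control and 7.04, 8.51 and 9.01 FPKM in F1-HHcy. These groups did not overlap, and the log2 fold change of -0.52 (SE 0.17) missed the threshold with an adjusted p of 0.0710. At Pd21 the groups lay together, at 7.56 ± 1.00 and 7.30 ± 2.30 FPKM. Jag1, on chromosome 2, lay between 2.33 and 5.46 FPKM in all 18 libraries, and its largest diet difference was at Pd7, at 4.26 ± 0.742 FPKM in F1-Control and 3.11 ± 0.425 FPKM in F1-HHcy (log2 fold change -0.35, SE 0.17, adjusted p = 0.178).

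The receptor genes encode the transmembrane proteins that are cut upon ligand binding. Notch2, on chromosome 3, took the largest share of the summed FPKM of Notch1, Notch2 and Notch3, with a mean of 76.8% ± 3.49 (SD, n = 3) in F1-Control at Pd3 and between 65.8% and 79.6% in each of the 18 libraries. With GENCODE M21 exon lengths this share ran from 68.8% to 83.4%. The level of Notch2 was 17.3 ± 2.18 FPKM in F1-Control and 16.0 ± 2.64 FPKM in F1-HHcy at Pd3, and the diet difference did not pass the test on any day (adjusted p = 0.696 at Pd3 and 0.626 at Pd7, with 0.9996 at Pd21). Notch1 likewise did not pass, with log2 fold changes of -0.12, 0.29 and -0.39 on the 3 days in order. Without each library in turn, the Pd7 log2 fold change ran from 0.06 to 0.46 for Notch1 and from -0.04 to 0.41 for Notch2. The 95% interval of the Notch2 difference ran from -0.46 to 0.24 at Pd3, from -0.31 to 0.65 at Pd7 and from -0.69 to 0.24 at Pd21, which leaves room for changes of that size. Notch1 shares 1226 exon bases with 0610009E02Rik on the opposite strand, which reached at most 0.969 FPKM here. On the opposite strand, Notch1 also shares 414 exon bases with Gm13568, and Notch3 628 with Gm17276. Notch2 shares 541 with Gm42820 on the same strand. Levels of Gm13568, Gm17276 and Gm42820 are not listed for the libraries. Whether reads were counted by strand is not given in the sources used here.

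Notch3, the receptor best known from vascular smooth muscle cells and pericytes, had the largest log2 fold change of the 3 receptors at Pd3 and Pd7 but not at Pd21, and passed the test on no day. At Pd3 it measured 1.07, 1.33 and 2.46 FPKM in F1-Control and 3.18, 2.39 and 3.50 FPKM in F1-HHcy. The groups overlapped through F1-Control replicate 3, and the log2 fold change of 0.65 (SE 0.22) had an adjusted p of 0.148. At Pd7 the control libraries held 2.83, 1.30 and 2.55 FPKM and the F1-HHcy libraries 3.25, 3.99 and 3.50 FPKM. Here the groups did not overlap, but the test was not passed (log2 fold change 0.54, SE 0.21, adjusted p = 0.112). Without each library in turn, the Notch3 log2 fold change ran from 0.50 to 0.86 at Pd3 (limma adjusted p from 0.112 to 0.429). It ran from 0.31 to 0.68 at Pd7 (adjusted p from 0.0802 to 0.290). At Pd21 the sign was turned, at 2.11 ± 0.510 FPKM in F1-Control and 1.52 ± 0.353 FPKM in F1-HHcy (log2 fold change -0.30, adjusted p = 0.9996). As a share of the 3 receptors, Notch3 made up 6.96% ± 1.98 in F1-Control and 13.6% ± 2.60 in F1-HHcy on Pd3. The shares were 12.9% ± 2.15 and 17.6% ± 0.697 on Pd7 and 14.1% ± 0.602 and 12.7% ± 0.424 on Pd21. These shares rest on the gene lengths in the deposited values. On each day the shares of the diet groups did not overlap, with F1-HHcy higher at Pd3 and Pd7 and lower at Pd21. An exact two-sided permutation test gave p = 0.1 on each day, the smallest value that 3 against 3 libraries allow (0.2 after Benjamini-Hochberg adjustment over 18 ratio tests, which were chosen after the values were seen). Summed FPKM of 9 pericyte and smooth muscle markers ranged from 114 to 159 in F1-Control and from 97.7 to 402 in F1-HHcy at Pd3, and from 358 to 615 and from 513 to 633 at Pd7. At Pd21 they ranged from 474 to 983 in F1-Control and from 391 to 567 in F1-HHcy. At Pd3 1 of the 9 rose, at Pd7 2 rose and 1 fell, and at Pd21 0 passed in limma with 2 lower by the looser criterion. Their median log2 fold change was 0.83, 0.23 and -0.51 on the 3 days in order. Stroma markers had the same signs, at 0.93, 0.32 and -0.17. So did endothelial markers (0.62, 0.15 and -0.10) and theca and steroidogenic markers (0.49, 2.18 and -0.28). The granulosa, oocyte, surface epithelium, multiciliated, immune and erythroid lists had other signs. The part of these cell types in the Notch3 values was not tested. In bulk tissue, fewer cells of a type and less RNA per cell cannot be told apart.

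Lfng encodes an enzyme of the Golgi that extends sugars on Notch receptors and thereby alters which ligands they answer to. It lies on chromosome 5 (GRCm38, chr5:140607320-140615545, plus strand). The 250 bases before its RefSeq start are shown because Lfng had the largest diet difference of the 10 genes and because this window holds the letters of the RBPJ motif, GTGGGAA (reverse complement TTCCCAC), in capitals, with the match beginning 109 bases before the start (GRCm38.p6, chr5:140607091-140607340, plus strand).
Lfng: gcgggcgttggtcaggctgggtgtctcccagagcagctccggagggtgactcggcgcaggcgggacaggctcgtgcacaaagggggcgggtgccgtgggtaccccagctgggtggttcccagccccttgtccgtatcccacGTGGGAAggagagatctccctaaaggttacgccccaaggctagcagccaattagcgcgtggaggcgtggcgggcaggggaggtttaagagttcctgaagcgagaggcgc
RefSeq promoters were available for 7 of the 10 members. Hes1, Hey1 and Heyl had none and were not searched. Of the 7, those of Lfng and Hey2 held the motif on either strand, as did 5.42% of all 32851 promoters in the same 250-base window. A match describes the letters only.

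Lfng was among the lowest members at Pd3 and Pd7. It measured 2.55, 3.37 and 2.78 FPKM in F1-Control and 2.86, 3.39 and 2.67 FPKM in F1-HHcy at Pd3 (log2 fold change 0.03, SE 0.14, adjusted p = 0.928). At Pd7 the values were 3.28, 4.02 and 3.02 FPKM in F1-Control and 3.43, 2.71 and 2.04 FPKM in F1-HHcy (log2 fold change -0.26, SE 0.18, adjusted p = 0.341). Up to this day the groups overlapped. At Pd21 the control libraries held 6.15, 4.66 and 4.72 FPKM and the F1-HHcy libraries 1.83, 1.60 and 2.32 FPKM. All control libraries lay above all F1-HHcy libraries, and Lfng fell, with a log2 fold change of -1.08 (adjusted p = 0.0183 in limma, SE 0.18), or 2.11-fold on the log2(FPKM + 1) scale. The direction was kept without each library in turn, but the threshold was kept only without F1-HHcy replicate 3 (adjusted p = 0.0490). It was missed without F1-HHcy replicate 1 (0.0586) or replicate 2 (0.0830) and without F1-Control replicate 1 (0.303), replicate 2 (0.0678) or replicate 3 (0.229). With no filter on low values the adjusted p was 0.126.

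Markers of multiciliated epithelium, a cell type of the oviduct rather than of follicles, moved with Lfng at Pd21. Of 6 such markers 5 could be tested, and 4 fell while 1 had a positive log2 fold change and did not pass. The median log2 fold change of those tested was -3.02. The sum of all 6 was 121 to 301 FPKM in F1-Control and 78.7 to 106 FPKM in F1-HHcy, with no marker at 0. A mean of at least 1 FPKM was reached by 5 of the 6 in F1-Control and 2 in F1-HHcy. This sum was already 53.3 to 61.0 FPKM in F1-Control at Pd3, so it does not follow Foxj1 alone. Foxj1, the regulator of motile cilia formation, measured 99.1, 20.4 and 49.7 FPKM in the F1-Control libraries and 0.371, 0.441 and 0.248 FPKM in those of F1-HHcy. The control library with the highest Foxj1 level, replicate 1, was also the one with the highest Lfng level, and Lfng without it had a log2 fold change of -0.97. At Pd3 and Pd7 Foxj1 lay between 0.0646 and 2.13 FPKM in all 12 libraries, while Lfng lay between 2.04 and 4.02 FPKM. Summed markers of surface epithelium ranged from 266 to 323 FPKM in F1-Control and from 78.1 to 176 FPKM in F1-HHcy at Pd21, with 0 of 5 past the threshold and 4 of 5 lower by the study's looser criterion. The part of these cells in the Lfng difference was not tested.

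**Figure D3:**
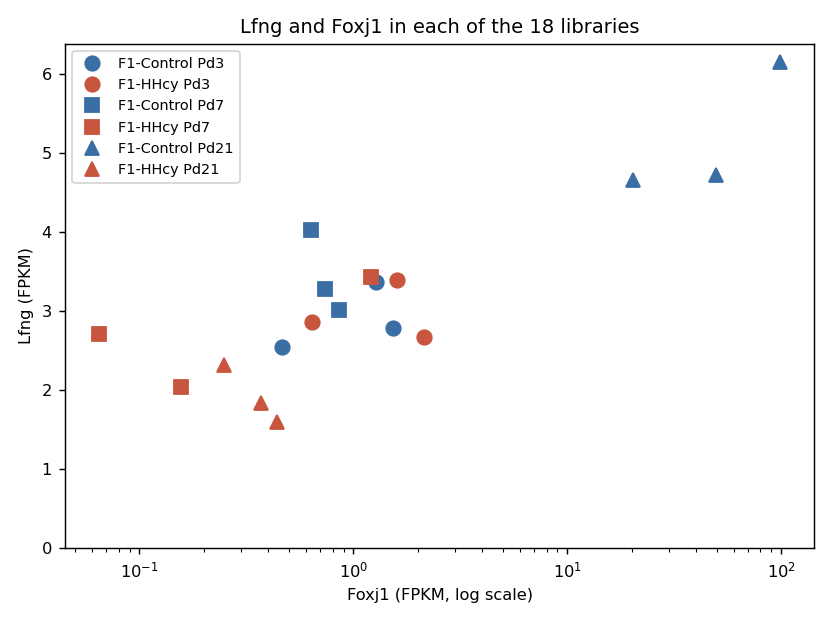
Lfng (vertical axis, FPKM) against the ciliated-cell gene Foxj1 (horizontal axis, FPKM on a log scale) in each of the 18 libraries, with colours for the diet and symbols for the day. The F1-Control Pd21 libraries stand apart at 20.4 to 99.1 FPKM of Foxj1 and 4.66 to 6.15 FPKM of Lfng, and the F1-HHcy Pd21 libraries lie at 0.248 to 0.441 FPKM of Foxj1 and 1.60 to 2.32 FPKM of Lfng.

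Hes1 encodes a transcriptional repressor that is switched on directly by Notch receptors in many tissues. It lies on chromosome 16 (GRCm38, chr16:30064384-30067796, plus strand). At Pd3 Hes1 measured 45.3, 38.8 and 28.2 FPKM in F1-Control and 14.9, 27.2 and 30.5 FPKM in F1-HHcy. The groups overlapped, and the log2 fold change of -0.64 (SE 0.28) had an adjusted p of 0.225. At Pd7 the control libraries held 25.1, 29.1 and 19.5 FPKM and the F1-HHcy libraries 11.6, 10.3 and 16.9 FPKM. Every F1-HHcy library lay below every control library, and Hes1 fell, with a log2 fold change of -0.89 (adjusted p = 0.0248 in limma, SE 0.21), or 1.85-fold. At Pd21 the levels were 23.3, 18.5 and 22.3 FPKM in F1-Control and 23.8, 14.0 and 12.6 FPKM in F1-HHcy (log2 fold change -0.37, SE 0.23, adjusted p = 0.9996). Replicate 1 of F1-HHcy was the highest of these 6 libraries. The Pd7 call was lost without F1-HHcy replicate 1 (adjusted p = 0.0907) or replicate 2 (0.0927), without F1-Control replicate 1 (0.0633) or replicate 2 (0.0856), and with no filter on low values (0.110), with log2 fold changes between -1.08 and -0.75 without each library in turn.

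Hey1, a repressor gene of the related Hey family, lies on chromosome 3 (GRCm38, chr3:8663359-8667256, minus strand). At Pd3 it measured 8.89, 9.09 and 10.7 FPKM in F1-Control and 6.67, 9.94 and 15.1 FPKM in F1-HHcy. The F1-HHcy libraries lay on both sides of the control libraries (log2 fold change 0.07, SE 0.25, adjusted p = 0.896). At Pd7 the control libraries held 9.68, 12.1 and 7.14 FPKM and those of F1-HHcy 4.27, 3.90 and 5.31 FPKM. These groups were apart, and Hey1 fell, with a log2 fold change of -0.93 (adjusted p = 0.0170 in limma, SE 0.20), or 1.91-fold. At Pd21 the groups met again at a lower level, at 5.72, 5.27 and 6.66 FPKM in F1-Control and 6.08, 5.27 and 3.79 FPKM in F1-HHcy (log2 fold change -0.20, SE 0.19, adjusted p = 0.9996). Without F1-HHcy replicate 1 or replicate 2 the Pd7 call was lost (adjusted p = 0.0656 and 0.0676), as it was with no filter on low values (0.0885). It was kept without F1-Control replicate 2, the library with the highest summed FPKM, at a log2 fold change of -0.77 (adjusted p = 0.0496).

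Hey2, the next member of that family, went the other way in value. It lies on chromosome 10 (GRCm38, chr10:30832359-30842801, minus strand). At Pd3 Hey2 measured 6.06, 4.66 and 5.45 FPKM in F1-Control and 12.7, 7.71 and 5.56 FPKM in F1-HHcy (log2 fold change 0.53, SE 0.26, adjusted p = 0.266). Replicate 3 of F1-HHcy was at the level of the controls. Without it the log2 fold change was 0.78 with an adjusted p of 0.0295, where 21.6% of all genes passed. This was the only 1 of 6 fits without 1 library in which Hey2 passed at Pd3. At Pd7 the control libraries held 7.07, 5.90 and 12.0 FPKM and the F1-HHcy libraries 11.1, 13.2 and 18.4 FPKM. The groups overlapped through F1-Control replicate 3, and the difference missed the threshold (log2 fold change 0.73, SE 0.25, adjusted p = 0.0846). Without that library the log2 fold change was 1.00 with an adjusted p of 0.0171, where 14.1% of all genes passed. Hey2 passed at Pd7 in only 1 of the 6 fits without 1 library. The others gave adjusted p from 0.106 to 0.242. At Pd21 the diet groups overlapped fully, at 15.6 ± 1.03 FPKM in F1-Control and 16.8 ± 3.05 FPKM in F1-HHcy (log2 fold change 0.10, adjusted p = 0.9996). Among the members with a RefSeq promoter, Hey2 had the other window with the RBPJ motif, and the 250 bases before its start are printed. The motif stands here as its reverse complement in capitals, beginning 207 bases before the start (GRCm38.p6, chr10:30842784-30843033, minus strand).
Hey2: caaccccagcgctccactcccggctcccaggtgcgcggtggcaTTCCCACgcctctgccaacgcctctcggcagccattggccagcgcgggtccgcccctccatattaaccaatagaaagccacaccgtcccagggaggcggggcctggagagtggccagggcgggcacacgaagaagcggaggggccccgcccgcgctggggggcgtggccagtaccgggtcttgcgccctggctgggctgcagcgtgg
Lfng and Hey2 thus share these letters, but Lfng was lower in F1-HHcy at Pd21 while Hey2 did not pass the test on any day.

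Hey1 was also set against Hey2 within each library. In the F1-HHcy libraries at Pd3 both genes ran in opposite order. At Pd7, F1-HHcy replicate 3 had the highest level of both in its group (Hey1 5.31 and Hey2 18.4 FPKM). The ratio of Hey1 to Hey2 was 1.79 ± 0.280 in F1-Control and 1.51 ± 1.11 in F1-HHcy at Pd3, and in the F1-HHcy libraries it took the values 0.526, 1.29 and 2.71. At Pd7 it was 1.34 ± 0.730 in F1-Control, with a range from 0.593 to 2.05, and 0.323 ± 0.0540 in F1-HHcy, with a range from 0.289 to 0.386. The Pd7 groups did not overlap (exact two-sided permutation p = 0.1, the smallest that 3 against 3 libraries can give, and 0.2 after adjustment over the 18 ratio tests). At Pd21 both groups were at the level of F1-HHcy at Pd7, with 0.379 ± 0.0455 in F1-Control and 0.315 ± 0.129 in F1-HHcy (exact permutation p = 0.5). The ratio was chosen after the values were seen. Heyl, whose product belongs to the same family and is best known from vascular smooth muscle, lay between 8.44 and 27.1 FPKM and did not pass the test on any day (log2 fold changes of 0.18 at Pd3, -0.26 at Pd7 and 0.20 at Pd21).

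**Figure D4:**
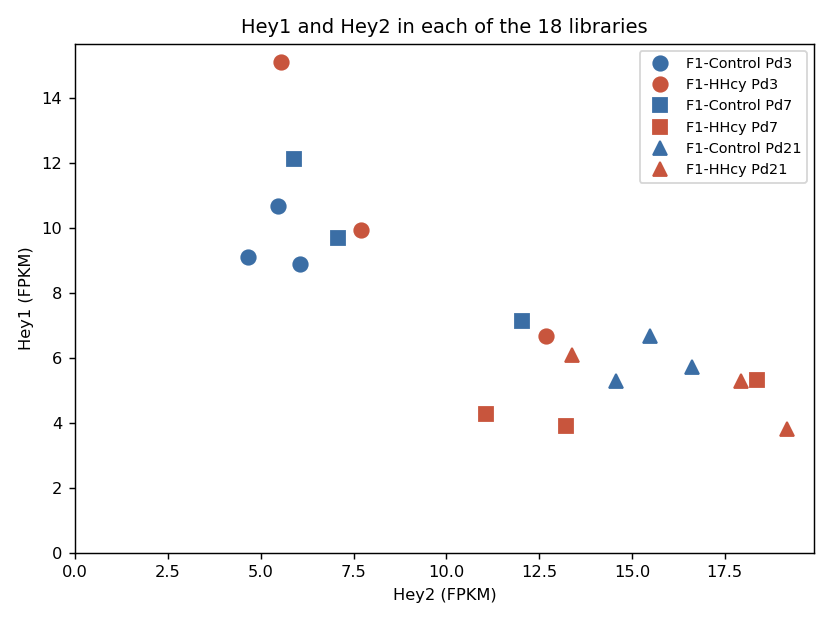
Hey1 (vertical axis, FPKM) against Hey2 (horizontal axis, FPKM) in each of the 18 libraries, with colours for the diet and symbols for the day. The F1-Control libraries of Pd3 lie at 4.66 to 6.06 FPKM of Hey2 and 8.89 to 10.7 FPKM of Hey1, whereas the F1-HHcy libraries of Pd7 lie at 11.1, 13.2 and 18.4 FPKM of Hey2, the last of them within the 13.4 to 19.2 FPKM of Pd21, and at 3.90 to 5.31 FPKM of Hey1.

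Other genes of the pathway were read from 9 lists of 63 genes. At Pd3, 0 of 53 tested genes passed in limma (9 had an unadjusted p under 0.05, and limma-voom called 0). Without F1-HHcy replicate 3 at Pd3, 10 of 53 passed, where 21.6% of all genes did. At Pd21, 0 of 53 passed (2 had an unadjusted p under 0.05, and limma-voom called 0). At Pd7, 8 of 54 passed, or 14.8% where 11.9% of all genes did, with 5 lower and 3 higher in F1-HHcy. Limma-voom called 7 at Pd7. With no filter on low values all 8 missed the threshold (adjusted p from 0.0610 to 0.130). By the looser criterion 2 of 53 were called at Pd3 (9.74% of all genes), 10 of 54 at Pd7 (16.4%) and 2 of 53 at Pd21 (5.14%). When the diet effects were compared between days, 0 of 54 passed for Pd7 minus Pd3 (0.411% of all genes). The same held for Pd21 minus Pd7 (3.89%) and Pd21 minus Pd3 (4.59%). The Pd7 calls were therefore not shown to be particular to that day.

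Among the Notch regulators, 2 of 10 fell and 2 rose at Pd7. Nrarp, a direct Notch target whose product restrains the signal, measured 7.55, 6.29 and 4.83 FPKM in F1-Control and 2.54, 2.19 and 2.13 FPKM in F1-HHcy. With no overlap, it fell, with a log2 fold change of -1.12 (adjusted p = 0.00642, SE 0.17), and it was called without each library in turn (adjusted p from 0.00202 to 0.0339). Nrarp shares 2051 exon bases with the antisense transcript Gm38287, so reads of the pair cannot be told apart if they were counted without strand. Dtx1, a Deltex ubiquitin ligase gene that is itself responsive to Notch in several tissues, held 9.54, 7.64 and 6.02 FPKM in F1-Control and 4.04, 3.74 and 2.68 FPKM in F1-HHcy (log2 fold change -0.95, SE 0.19, adjusted p = 0.0152). Its call was lost without F1-HHcy replicate 3 (adjusted p = 0.0570) or F1-Control replicate 2 (0.0519). The other Deltex genes Dtx3 (log2 fold change 0.94, SE 0.22, adjusted p = 0.0271) and Dtx4 (0.80, SE 0.21, adjusted p = 0.0364) rose, and each was lost in 4 of 6 fits without 1 library. For Dtx3 these were F1-HHcy replicates 1, 2 and 3 and F1-Control replicate 2 (adjusted p from 0.0584 to 0.0894), and for Dtx4 F1-HHcy replicates 1 and 3 and F1-Control replicates 1 and 2 (from 0.0787 to 0.104).

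Among 3 tested non-canonical ligands, 1 fell at Pd7. This was Dlk1, which encodes a membrane protein akin to Delta that lacks the part needed to activate receptors, at 20.8, 19.2 and 12.0 FPKM in F1-Control and 4.80, 5.85 and 2.03 FPKM in F1-HHcy (log2 fold change -1.86, SE 0.30, adjusted p = 0.00678). Its libraries did not overlap, and the call was kept without each library in turn. At Pd21 Dlk1 was at 6.70 ± 3.99 and 1.40 ± 0.659 FPKM (log2 fold change -1.59, adjusted p = 0.0873). Among 10 receptor processing genes, 1 fell at Pd7, Psenen, which encodes a subunit of the gamma-secretase that cuts Notch, from 91.2 ± 22.3 to 53.7 ± 5.41 FPKM (adjusted p = 0.0333). Among 12 corepressors 1 fell (Tle4, from 11.6 ± 1.86 to 7.12 ± 1.45 FPKM, adjusted p = 0.0457), and among 4 ubiquitin ligases of the ligands 1 rose (Mib2, from 12.0 ± 2.82 to 18.8 ± 1.53 FPKM, adjusted p = 0.0494). Psenen was lost without any of the F1-HHcy libraries or F1-Control replicate 2 (adjusted p from 0.0549 to 0.127), Tle4 without replicate 1 or 2 of either diet (from 0.0884 to 0.182), and Mib2 without any library but F1-Control replicate 1 (from 0.0693 to 0.169). Other settings ended some of these calls as well. Mib2 was lost with a pseudocount of 0.1 (0.0542), the replicate block (0.0508), all 18 libraries in 1 model (0.0719) and limma-voom (0.0542). Tle4 was lost with the replicate block (0.0527) and all 18 libraries (0.0900), Psenen with median-ratio scaling (0.0514) and Dtx3 with all 18 libraries (0.0776). Among the nuclear complex (8 tested), the glycosyltransferases besides Lfng (4 tested), the remaining ligands and receptor (2 tested) and the other Hes genes (1 tested), 0 passed at Pd7. Rbpj, the DNA-binding partner of the receptors, measured 2.29 ± 0.440 FPKM in F1-Control and 2.95 ± 0.492 FPKM in F1-HHcy at Pd7 (log2 fold change 0.27, adjusted p = 0.300). Dll1 and Dll4, ligands of the Delta type, had means of 0.416 to 1.93 FPKM at Pd7.

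**Figure D5:**
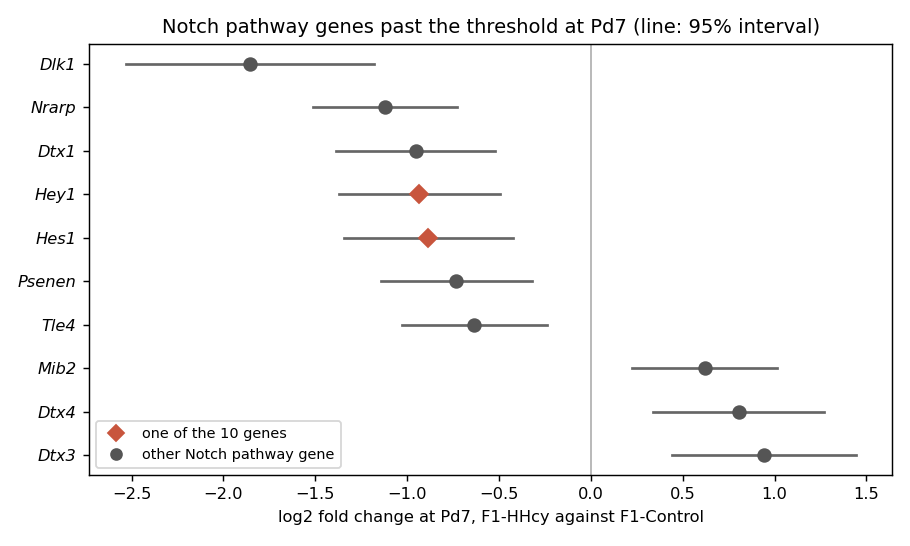
Log2 fold change at Pd7 of F1-HHcy against F1-Control (horizontal axis, on the log2(FPKM + 1) scale) with its 95% interval, for Hes1 and Hey1 (diamonds) and the 8 other Notch pathway genes (circles) with an adjusted p under 0.05. Dlk1 lies lowest at -1.86 and Nrarp next at -1.12, while Mib2, Dtx4 and Dtx3 lie on the positive side at 0.62 to 0.94.

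Markers of several cell types moved at the same time at Pd7. All 6 theca and steroidogenic markers rose, and their sum was 216 to 449 FPKM in F1-Control and 1136 to 1195 FPKM in F1-HHcy. Of 10 oocyte markers 5 fell and 1 rose, with sums of 1341 to 2193 and 772 to 1295 FPKM. Of 5 surface epithelium markers 3 fell, with sums of 360 to 571 and 154 to 327 FPKM. Granulosa markers had sums of 291 to 567 and 550 to 882 FPKM, with 2 of 10 higher, and of the 5 erythroid markers all 4 tested fell, with sums of 864 to 5179 and 269 to 470 FPKM. None of these markers was at 0. The part of these cell types in the Hes1, Hey1, Nrarp, Dtx1 and Dlk1 differences was not tested.

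Age was compared within each diet between Pd3 and Pd7, which share a batch label, in 1 model of all 18 libraries. These comparisons use the same libraries as those between the diets. In F1-Control 1 of 10 members passed, where 11.4% of 14607 genes did (2 members, and 13.7% of genes, by the looser criterion). This was Jag2, which fell from 22.7 ± 2.78 to 12.2 ± 2.30 FPKM (log2 fold change -0.85, SE 0.26, adjusted p = 0.0465). That call stood just inside the threshold and was lost with a pseudocount of 0.1 (adjusted p = 0.0508), under median-ratio scaling (0.0530) and with no filter on low values (0.101). It was also lost without replicate 1 (0.109), replicate 2 (0.0974) or replicate 3 (0.143) of F1-Control at Pd3 and without replicate 2 (0.129) or replicate 3 (0.154) at Pd7. Without replicate 1 at Pd7 Jag2 passed (0.0384), and so did Notch2 (log2 fold change -0.73, adjusted p = 0.0279), which had -0.49 (0.138) with all libraries. In F1-HHcy 1 of 10 passed, where 5.48% of genes did (4 members, and 11.8% of genes, by the looser criterion), and this was Hey1, which fell from 10.6 ± 4.24 to 4.50 ± 0.731 FPKM (log2 fold change -1.02, SE 0.23, adjusted p = 0.0255). Hey1 was lost with no filter (adjusted p = 0.0638), when only the groups compared were fitted (0.105), without replicate 2 (0.0778) or replicate 3 (0.139) of F1-HHcy at Pd3, and without replicate 1 (0.0895) or replicate 2 (0.0905) at Pd7. In F1-Control Hey1 had nearly the same mean on both days, 9.55 ± 0.964 and 9.64 ± 2.48 FPKM. Jag2 in F1-HHcy had a log2 fold change of -0.82 between the days (adjusted p = 0.0736), next to -0.85 in F1-Control. The spread of F1-HHcy at Pd3 was wide for these genes. Without replicate 1 of that group, 5 members passed in F1-HHcy, where 13.1% of all genes did, with Jag1 (-0.61), Jag2 (-1.12), Hes1 (-1.13) and Hey1 (-1.28) lower and Hey2 (0.98) higher at Pd7.

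The F1-HHcy libraries at Pd3 also differed from each other in marker genes. Replicate 1, with the lowest Jag2 and Hey1 and the highest Hey2 of the group, had 543 FPKM of granulosa markers and 679 FPKM of theca and steroidogenic markers. Replicate 2 lay between the others with 398 and 349 FPKM. Replicate 3, with the highest Jag2 and Hey1 and the lowest Hey2, had 282 and 71.3 FPKM. The F1-Control libraries of that day had 249 to 265 FPKM of granulosa markers and 98.4 to 152 FPKM of theca and steroidogenic markers. Endothelial and pericyte and smooth muscle sums also fell from replicate 1 to 3 of F1-HHcy, while multiciliated sums rose. Other lists did not follow this order. In replicates 1, 2 and 3, oocyte markers had 1311, 1673 and 1185 FPKM and stroma markers 845, 902 and 685 FPKM. Surface epithelium markers had 338, 521 and 254 FPKM, and immune and erythroid sums had no such order either.

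Whether the diet difference itself changed between days was tested as the difference of the diet effects. Between Pd7 and Pd3, 0 of 10 members passed in limma, where 0.411% of 14607 genes did (1 member, and 10% of genes, by the looser criterion). Without adjustment 1 member, Hey1, had a p under 0.05 (difference -1.01, SE 0.33, adjusted p = 0.201), and limma-voom called 0. The fall of Hes1 and Hey1 at Pd7 was therefore not shown to differ from their diet difference at Pd3. Between Pd21 and Pd7, 0 of 10 passed, where 3.89% did (3 members, and 15.3% of genes, by the looser criterion). Unadjusted p-values were under 0.05 for 3 members, Lfng (-0.82, adjusted p = 0.0590), Notch3 (-0.84, adjusted p = 0.148) and Hey1 (0.73, adjusted p = 0.230), and limma-voom called 0. Without F1-HHcy replicate 3 at Pd7 Lfng passed (-0.95, adjusted p = 0.0308). Between Pd21 and Pd3, 1 of 10 passed, where 4.59% did (2 members, and 13% of genes, by the looser criterion). Lfng differed by -1.11 on the log2 scale (SE 0.23, adjusted p = 0.00906), and it passed without each of the 12 libraries in turn (adjusted p from 0.00708 to 0.0472). Notch3 had a difference of -0.95 (SE 0.31, adjusted p = 0.103) and passed only without F1-Control replicate 3 at Pd3 (-1.17, adjusted p = 0.0338). The comparisons with Pd21 also compare the batches, and age and batch cannot be told apart in them.

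The members were further described by how they moved together over the 18 libraries after the mean of each day was taken off, on the log2(FPKM + 1) scale. These correlations share libraries, depth and cell makeup and are given as descriptions. The mean of a day spans both diets, so the diet differences given above remain in these values and enter the correlations. How often pairs among all genes pass 0.5 by this measure was not taken. Of 45 pairs, 10 had a Pearson r above 0.5 and 4 below -0.5. Hes1 and Hey1 moved together (r = 0.76), as did Hes1 and Jag2 (0.76) and Notch1 and Notch2 (0.86). Hey2 moved against Hes1 (-0.74), Hey1 (-0.73) and Jag2 (-0.73), and Notch3 against Hes1 (-0.53). Lfng had no r beyond 0.30 in size with any other member.

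For each member the 3 most similar of the 14607 genes were taken by the same measure over the 18 libraries. For Hey2 they were Nr5a2 (r = 0.94), the gene of a nuclear receptor of granulosa cells, Gm33784 (0.94) and Ihh (0.94), the gene of a hedgehog ligand made by granulosa cells. Nr5a2 had a median of 16.0 FPKM in F1-Control and 53.8 FPKM in F1-HHcy at Pd7. For Hey1 they were Hsd3b6 (0.92), Tbpl2 (0.92), the gene of an oocyte form of the TATA-binding protein, and Syt9 (0.91). Tbpl2 had a median of 11.4 FPKM in F1-Control and 3.08 FPKM in F1-HHcy at Pd7, beside 12.3 and 11.3 FPKM at Pd3. Hes1 was most like Kdf1 (0.95), Vps53 (0.91) and Ormdl3 (0.91), and Jag2 most like Map3k9 (0.96), Clip4 (0.95) and Camsap3 (0.95). Lfng was most like Anxa8 (0.94), Dynlrb2 (0.94), the gene of a dynein light chain, and Spaca9 (0.93). Dynlrb2 ranged from 53.2 to 189 FPKM in F1-Control at Pd21 and from 0.353 to 0.887 FPKM in F1-HHcy, so that these values rest largely on the Pd21 libraries. The receptors were most like Nynrin, Sh3pxd2a and Spen (Notch1, each r = 0.92), Zfp516, Zfp609 and Nbeal2 (Notch2, 0.92 to 0.93) and Slit3, Pip5k1c and Col16a1 (Notch3, 0.92 to 0.93). Jag1 (Wscd2, Uaca and Ptgfrn) and Heyl (Syt13, Cd180 and Tram1) had the loosest partners, with r from 0.85 to 0.86 and from 0.80 to 0.85.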

How the data were processed

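The 10 genes and the pathway and marker lists were chosen with earlier results of these data known. Poly-A libraries of whole ovaries were made from TRIzol RNA with a TruSeq Stranded kit. The submitters' processing notes name FastQC 0.11.9, Trimmomatic 0.39, STAR 2.7.9a, featureCounts 2.0.1 (Subread), DESeq2 1.36.0 and the build GRCm38/mm10, with no role or order. Values deposited by the authors carry no unit name and were read as FPKM, with each gene symbol listed 1 time a library. Of 27294 genes above 0 in at least 3 libraries, 27286 gave whole fragments (tolerance 0.08 fragments) after division by 1 step per gene and library, which gave the depths of 33630641 to 39399281 fragments.

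Genes that reached 1 FPKM in 3 or more libraries were compared on log2(FPKM + 1) with limma 3.58.1 in R 4.3.3 with a variance trend, in the 6 libraries of each day, or in 1 model of 6 groups for comparisons across days. Adjusted p-values are Benjamini-Hochberg values over all genes tested. The step was tested on simulated data. All 10 members were named, as was any pathway gene with an adjusted p under 0.05 between diets on a day, and the 3 genes most like each member. Alternatives were a pseudocount of 0.1, no filter, median-ratio scaling, a block for the replicate number, the study's criterion (unadjusted p under 0.05 and log2 fold change beyond 0.58), another set of libraries in the model, each library left out, and, added after seeing the data, limma-voom on the recovered fragments and, for levels, GENCODE exon lengths. Positions are from GENCODE M21 (GRCm38) and promoters from RefSeq (GRCm38.p6).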

Additional observations from a re-analysis of the deposited data

Results flagged for a closer look

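The diet difference of Lfng changed between days. On the log2 scale it was 0.03 on Pd3, -0.26 on Pd7 and -1.08 on Pd21, and the difference between Pd21 and Pd3 was -1.11 (SE 0.23, adjusted p = 0.00906 from limma's difference of the diet effects over 14607 genes). All 3 control libraries lay above all 3 F1-HHcy libraries at Pd21. The Pd3 and Pd21 libraries carry different batch labels, and age and batch cannot be told apart.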

How the results depend on the processing

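Among the members that passed the threshold or the study's criterion and the 8 pathway genes called at Pd7, no alternative turned a direction. With no filter on low values, which raised the number of genes tested to between 27626 and 30172, the members called numbered 0 at Pd7, 0 at Pd21, and 0 between Pd3 and Pd7 in either diet, and the genes called in all numbered 0 at Pd3 (408 with the filter), 91 at Pd7 (1577) and 37 at Pd21 (298). Between Pd3 and Pd7 in F1-Control, where Jag2 was the member called, 0 were called with a pseudocount of 0.1, with median-ratio scaling and with the replicate block. When only the groups compared were fitted, 0 members and 0 genes were called between the days in F1-HHcy. By the study's criterion the members numbered 1 at Pd3, 2 between the days in F1-Control, 4 in F1-HHcy, and 1, 3 and 2 for the difference of diet effects of Pd7 minus Pd3, Pd21 minus Pd7 and Pd21 minus Pd3. Without each library in turn, the members called ranged from 0 to 2 at Pd3, 0 to 3 at Pd7, 0 to 1 at Pd21, 0 to 2 between the days in F1-Control, 0 to 5 in F1-HHcy, 0 to 0 for Pd7 minus Pd3, 0 to 1 for Pd21 minus Pd7 and 1 to 2 for Pd21 minus Pd3. The share of all genes called moved too in these fits, from 0% to 21.6% at Pd3, 3.78% to 14.1% at Pd7, 0.00770% to 1.40% at Pd21, 2.95% to 13.2% between the days in F1-Control, 0.103% to 13.1% in F1-HHcy, and 0.0686% to 1.82%, 1.30% to 8.03% and 1.47% to 8.65% for the differences in the same order. The Pd3 fit with 2 members was the one with 21.6% and the Pd7 fit with 3 members the one with 14.1%. Limma-voom on the fragments gave as many members as the main test in each of the 8 comparisons.

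The replicate numbers did not pair the libraries: the deviations of same-numbered libraries correlated between -0.34 and 0.09. With the replicate block the members called were 0 at Pd3, 3 at Pd7 (Hey2 joined, adjusted p = 0.0192), 1 at Pd21, 0 between the days in F1-Control and 1 in F1-HHcy, and 0, 0 and 1 for the differences between days, and all genes called at Pd3 fell from 408 to 1. With 3 libraries a group, precision is set by the spread between libraries and not by depth, since the lowest member had 141 fragments.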
